A study of Mus musculus with 6 samples.

Results

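The Klra genes encode the Ly49 receptors, and every probe set whose gene symbol in the platform annotation, alone or in a list, starts with Klra was taken. There were 12 such probe sets among 12488. The signals came from Affymetrix arrays of intraepithelial lymphocytes (IEL), T cells found between the epithelial cells of the small intestine. The lymphocytes were sorted, freshly isolated and untreated, from C57BL/6 mice under 8 weeks of age, with no allele or agent named. There were 3 sorted subsets, TCRab CD8aa, TCRgd CD8aa and TCRab CD8ab, each hybridised on 2 arrays. TCRab and TCRgd name the alpha-beta and gamma-delta T cell receptors, CD8aa is the CD8 homodimer of 2 alpha chains, and CD8ab is the heterodimer of an alpha and a beta chain. The study ran 2 experiments, and in each of them a fresh pool of 20 mice supplied the 3 subsets. An array is therefore 1 pool and not 1 mouse. Without a block, p-values measure the spread between pools. With the experiment as a block, the shift common to the subsets of a pool is taken out. The p-values then measure how far subset differences vary between the 2 experiments. The array titles write TCRgb where the source labels write TCRgd, and the source labels were followed. Fewer cells of a kind that carries a transcript and less transcript per cell cannot be told apart in such pools.

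Ly49 receptors are lectin-like proteins of natural killer (NK) cells and of some T cells, and most bind MHC class I molecules. The inhibitory members carry a tyrosine motif that recruits phosphatases such as Ptpn6 (SHP-1), and the activating members Ly49D (Klra4) and Ly49H (Klra8) signal through the adaptor DAP12 (Tyrobp). The genes are near copies of each other in 1 cluster, and each NK cell expresses only some of them, so a bulk signal sums over cells that carry different receptors.

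That likeness limits what an array can tell about single members. Of the 12 probe sets, 10 carry the suffix _f_at, which Affymetrix gives to probe sets whose probes are shared within a gene family, and 6 carry several symbols. Only 95908_at and 98801_at lack the suffix. All members below are therefore named by probe set, a symbol says what the annotation assigns and not what alone hybridised, and signals are compared between subsets and never between probe sets. In the RefSeq annotation the 14 Klra genes listed lie on chromosome 6, in the order Klra17, Klra5, Klra6, Klra4, Klra11-ps, Klra8, Klra14-ps, Klra9, Klra7, Klra10, Klra13-ps, Klra3, Klra1 and Klra2. Between 0 and 2 other genes separate neighbours from Klra17 to Klra1, and 15 other genes lie between Klra1 and Klra2. The symbols Klra16 and Klra23 belong to receptors known from other mouse strains, and RefSeq lists Klra22 as a synonym of Klra1.

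The windows around the annotated gene starts vary in how alike they are, which depends also on where each start was placed. The RefSeq promoter windows run from 250 bases before to 50 after a start and cover 9 of the 12 symbols on the probe sets after symbols were updated. The windows of the 4 genes that have a probe set with only their own symbol and a signal high enough to test are shown first, followed by Klra2, whose probe set stayed near the lowest signals. Capitals mark the longest run of bases that the first 4 share. Klra2 lacks it, and so do the windows of Klra1, Klra8 and Klra9, whose symbols are on tested probe sets. All 5 are on the minus strand of chromosome 6 in GRCm38.p6, written from 5′ to 3′, at chr6:129913175-129913474 (Klra5), chr6:130026905-130027204 (Klra6), chr6:130337577-130337876 (Klra3), chr6:130233273-130233572 (Klra7) and chr6:131247313-131247612 (Klra2).
Klra5: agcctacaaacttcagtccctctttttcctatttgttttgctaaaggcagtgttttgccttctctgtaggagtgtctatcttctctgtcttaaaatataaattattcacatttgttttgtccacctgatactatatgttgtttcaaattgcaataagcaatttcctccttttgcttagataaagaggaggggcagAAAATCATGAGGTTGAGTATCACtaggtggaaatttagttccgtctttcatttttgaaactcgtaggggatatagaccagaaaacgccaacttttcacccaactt
Klra6: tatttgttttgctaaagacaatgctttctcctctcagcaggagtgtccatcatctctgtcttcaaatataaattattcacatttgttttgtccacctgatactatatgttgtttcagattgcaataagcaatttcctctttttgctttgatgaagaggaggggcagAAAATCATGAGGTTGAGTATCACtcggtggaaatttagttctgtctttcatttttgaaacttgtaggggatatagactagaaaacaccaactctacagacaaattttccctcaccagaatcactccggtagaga
Klra3: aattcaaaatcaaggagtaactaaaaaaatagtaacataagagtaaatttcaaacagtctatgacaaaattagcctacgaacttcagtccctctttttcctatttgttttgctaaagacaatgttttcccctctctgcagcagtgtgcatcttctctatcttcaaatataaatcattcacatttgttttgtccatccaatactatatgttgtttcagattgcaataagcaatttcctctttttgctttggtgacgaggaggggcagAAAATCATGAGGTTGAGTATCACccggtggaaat
Klra7: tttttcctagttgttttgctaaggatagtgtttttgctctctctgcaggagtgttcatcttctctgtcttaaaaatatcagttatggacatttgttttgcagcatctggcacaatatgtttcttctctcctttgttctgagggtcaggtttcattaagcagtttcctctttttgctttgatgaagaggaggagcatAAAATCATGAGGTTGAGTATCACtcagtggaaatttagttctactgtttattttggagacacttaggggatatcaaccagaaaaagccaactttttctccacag
Klra2: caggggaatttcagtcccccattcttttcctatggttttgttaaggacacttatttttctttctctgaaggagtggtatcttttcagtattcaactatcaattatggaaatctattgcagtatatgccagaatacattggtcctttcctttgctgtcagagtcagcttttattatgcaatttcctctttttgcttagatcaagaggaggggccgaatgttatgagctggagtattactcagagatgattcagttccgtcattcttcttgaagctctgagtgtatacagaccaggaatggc
The run has 23 bases and occurs in 4 of 32851 promoter windows (0.0122%), and in none outside the Klra genes. It was chosen as the longest match among these 4, so its rarity is a description. The Klra3 window matched that of Klra9 at 96.4% of 281 aligned bases and that of Klra6 at 93.0% of 200. The Klra5 window matched that of Klra6 at 90.8% of 271 aligned bases and that of Klra2 at 73.3% of 277. The Klra1 window matched the others at 54.6% to 63.8% of aligned bases. Such low matches were not particular to Klra1. The Klra10 window matched the unprinted Klra7 window at 83.2% and all others at 55.3% to 64.1%. The other Klra7 window matched the printed one at 61.2% of 268 and lacks the run. The letters CTTTGAT or CTTTGTT, a form of the motif of TCF factors, occurred on either strand in 3 of 13 Klra windows (Klra6, Klra9 and 1 of those of Klra7), against 9.33% of all windows. The RUNX letters TGTGGT occurred in 1 of the 13 (Klra1), against 16.8% of all windows.

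The CD8 labels held on their marker. Cd8b1, the CD8 beta chain, had signals of 29.5 and 182.1 in TCRab CD8aa cells and 28.1 and 763.1 in TCRgd CD8aa cells, against 17646.6 and 27591.7 in TCRab CD8ab cells. Ncr1, which marks conventional NK cells, lay between 3.6 and 19.9 on all 6 arrays, and 5 of these values were under the floor of 15.3 (the 20th percentile of all signals) to which lower values were raised before log2 was taken. The experiments differed widely. In the limma fit with the experiment as a block, 2827 of 8299 tested probe sets (34.1%) differed between them at an adjusted p under 0.05. The ratio of 3′ to 5′ actin signal, a measure of RNA integrity, lay between 40.4 and 52.2 on the arrays of experiment 2 and between 1.41 and 1.76 on those of experiment 1. Enterocyte markers summed to 23690 on the second TCRgd CD8aa array, against 680.0 to 1938.7 on the other 5, and B and plasma cell markers to 5305 there, against 731.2 to 1345.4. Most of the 5305 came from Jchain (4023.1). Without Jchain the B and plasma cell sums were 1281.9 there and 654.7 to 1243.9 on the other 5. Each Klra difference is therefore given within each experiment as well.

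Of the 12 Klra probe sets, 9 had at least 2 arrays above a signal of 56.4 (the 40th percentile) and were tested. Both arrays of TCRab CD8aa cells lay above both of TCRab CD8ab cells in all 9 that were tested, and the same was true of TCRgd CD8aa cells. Between the CD8aa subsets, TCRgd CD8aa cells had far less signal than TCRab CD8aa cells on 95908_at, the probe set of Klra1, and mean differences of -0.47 to -0.34 in log2 on the 3 probe sets of Klra3 and Klra9. Only 3 of the 9, those of Klra5 and Klra3 and 93894_f_at, lay above that signal on all 6 arrays. The probe set 94779_f_at did so only on the 4 CD8aa arrays, and 95908_at only on 3 of them, so these passed the filter through the subsets in which they were high.

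**Figure D1:**
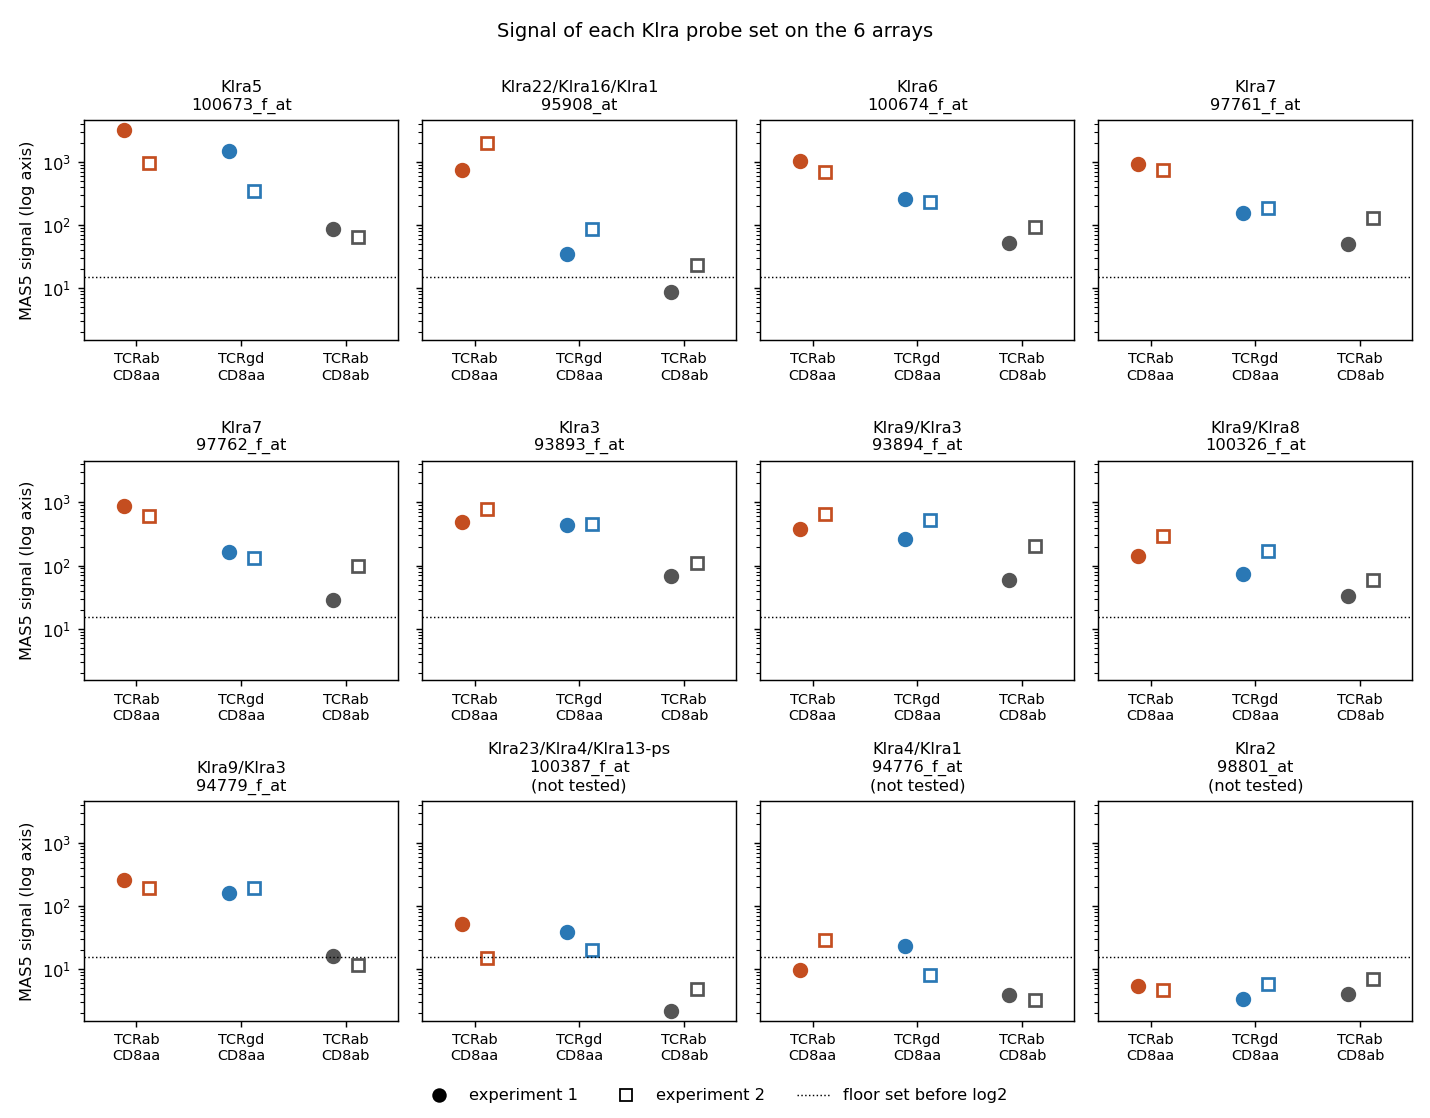
Signal of each of the 12 Klra probe sets (log axis, arbitrary units) in TCRab CD8aa, TCRgd CD8aa and TCRab CD8ab cells, with 1 point per array (circles for experiment 1, squares for experiment 2) and a dotted line at the floor of 15.3. In all 9 tested probe sets both CD8aa subsets lie above TCRab CD8ab, and the last 3 panels show those too dim to test.

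The largest difference was that of 95908_at, which the annotation assigns to Klra22, Klra16 and Klra1. Klra1 encodes Ly49A, an inhibitory receptor for H-2D molecules. Its signals were 751.8 and 1962.8 in TCRab CD8aa cells, 35.2 and 86.5 in TCRgd CD8aa cells, and 8.6 and 22.9 in TCRab CD8ab cells. The arrays of the 3 subsets did not overlap, and the first TCRab CD8ab array was under the floor. TCRab CD8aa cells were higher than TCRab CD8ab cells by 6.02 ± 0.51 on the log2 scale (SE, n = 2 arrays each; limma with the experiment as a block, adjusted p = 0.00121), by 5.62 in experiment 1 and 6.42 in experiment 2. The size depends on the floor, and was 6.44 with a floor at the 10th percentile and 5.29 with one at the 30th. TCRgd CD8aa cells differed from TCRab CD8ab cells by 1.56 ± 0.51, which did not pass (adjusted p = 0.385), and by 0.83 with the floor at the 30th percentile.

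Klra5 encodes Ly49E, known from fetal NK cells. The Klra5 probe set (100673_f_at) had signals of 3177.5 and 971.7 in TCRab CD8aa cells, 1484.3 and 345.0 in TCRgd CD8aa cells, and 86.9 and 65.2 in TCRab CD8ab cells. Both CD8aa subsets were brighter in experiment 1 than in experiment 2, and each of their arrays was above both TCRab CD8ab arrays. The difference was 4.55 ± 0.44 for TCRab CD8aa over TCRab CD8ab (adjusted p = 0.00198 with the block) and 3.25 ± 0.44 for TCRgd CD8aa over TCRab CD8ab (adjusted p = 0.0137), in log2 units from limma. Within experiments 1 and 2 the folds were 36.6 and 14.9 for TCRab CD8aa, and 17.1 and 5.29 for TCRgd CD8aa.

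Klra6 encodes Ly49F, an inhibitory receptor whose window above is close to that of Klra5. The Klra6 probe set (100674_f_at) had signals of 1038.6 and 697.0 in TCRab CD8aa cells, 258.1 and 228.7 in TCRgd CD8aa cells, and 52.7 and 91.7 in TCRab CD8ab cells. The subsets were ordered alike in both experiments, with no overlap. TCRab CD8aa cells were higher than TCRab CD8ab cells by 3.61 ± 0.44 (log2, limma with the block, adjusted p = 0.0067), and TCRgd CD8aa cells by 1.81 ± 0.44, which did not pass (adjusted p = 0.194).

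Klra7 encodes Ly49G, an inhibitory receptor that binds H-2D molecules. Both of its probe sets behaved alike. The signals of 97761_f_at were 941.4 and 759.3 in TCRab CD8aa cells, 157.3 and 184.7 in TCRgd CD8aa cells, and 51.0 and 128.5 in TCRab CD8ab cells. Those of 97762_f_at were 885.6 and 614.6 in TCRab CD8aa cells, 162.9 and 131.1 in TCRgd CD8aa cells, and 28.4 and 98.8 in TCRab CD8ab cells. TCRgd CD8aa cells lay nearer to TCRab CD8ab cells than to TCRab CD8aa cells in experiment 2. For TCRab CD8aa over TCRab CD8ab the log2 differences were 3.38 ± 0.47 (adjusted p = 0.0132, limma with the block) and 3.80 ± 0.59 (adjusted p = 0.0227). For TCRgd CD8aa over TCRab CD8ab they were 1.07 and 1.46 and did not pass (adjusted p = 0.601 and 0.543), and within experiment 2 they were 0.52 and 0.41. Without the block, leaving out the first TCRab CD8ab array gave 0.41 and 0.56, and leaving out the second gave 1.74 and 2.36.

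Klra3 and Klra9 encode Ly49C and Ly49I, inhibitory receptors for H-2K molecules, and 3 probe sets carry their symbols without those of other members. The Klra3 probe set (93893_f_at) had signals of 494.7 and 773.3 in TCRab CD8aa cells, 444.6 and 449.0 in TCRgd CD8aa cells, and 67.2 and 108.0 in TCRab CD8ab cells. The signals of 94779_f_at, assigned to Klra9 and Klra3, were 256.0 and 195.9 in TCRab CD8aa cells, 162.3 and 193.6 in TCRgd CD8aa cells, and 16.3 and 11.6 in TCRab CD8ab cells, the last of these under the floor. Both probe sets were high in both CD8aa subsets and low in TCRab CD8ab cells. The Klra3 probe set was higher by 2.86 ± 0.38 in TCRab CD8aa cells (adjusted p = 0.0107, limma with the block) and by 2.39 ± 0.38 in TCRgd CD8aa cells (adjusted p = 0.0322), each over TCRab CD8ab cells in log2. For 94779_f_at these differences were 3.83 ± 0.54 (adjusted p = 0.014) and 3.49 ± 0.54 (adjusted p = 0.0277).

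The third of these, 93894_f_at, also carries Klra9 and Klra3. It had signals of 375.0 and 655.1 in TCRab CD8aa cells, 258.9 and 524.1 in TCRgd CD8aa cells, and 59.3 and 205.8 in TCRab CD8ab cells. It was brighter in experiment 2 than in experiment 1 in every subset, by 1.21 ± 0.33 in log2 (adjusted p = 0.021). The differences from TCRab CD8ab cells were 2.17 ± 0.41 in TCRab CD8aa cells (adjusted p = 0.0506, limma with the block) and 1.74 ± 0.41 in TCRgd CD8aa cells (adjusted p = 0.168), and neither passed. Which transcripts each of the 3 binds was not tested.

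The activating receptors were poorly covered. Klra8 (Ly49H, which recognises a protein of mouse cytomegalovirus) shares 100326_f_at with the inhibitory Klra9. Its signals were 139.4 and 294.4 in TCRab CD8aa cells, 72.3 and 170.8 in TCRgd CD8aa cells, and 32.6 and 59.9 in TCRab CD8ab cells, so the subsets kept 1 order within each experiment. The log2 differences from TCRab CD8ab cells were 2.20 ± 0.50 in TCRab CD8aa cells (adjusted p = 0.123, limma with the block) and 1.33 ± 0.50 in TCRgd CD8aa cells (adjusted p = 0.512). Klra4 (Ly49D) occurs only in lists on 2 probe sets, and neither was bright enough to test.

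The untested probe sets were dim on every array. The signals of 100387_f_at, assigned to Klra23, Klra4 and the pseudogene Klra13-ps, were 52.1 and 15.0 in TCRab CD8aa cells, 39.1 and 19.8 in TCRgd CD8aa cells, and 2.2 and 4.9 in TCRab CD8ab cells, with 3 of the 6 under the floor. The signals of 94776_f_at, assigned to Klra4 and Klra1, were 9.8 and 28.7 in TCRab CD8aa cells, 23.1 and 8.0 in TCRgd CD8aa cells, and 3.9 and 3.3 in TCRab CD8ab cells, with 4 under the floor. The signals of 98801_at (Klra2, or Ly49B, known from myeloid cells) lay between 3.4 and 7.0, all under the floor. Low signal here gives no level, and the dim 94776_f_at shares the symbol Klra1 with 95908_at, the probe set of the largest difference.

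Set against all tested probe sets, the Klra counts read as follows for TCRab CD8aa over TCRab CD8ab cells. Without the block no probe set of the array passed an adjusted p of 0.05 (0 of 8299, 0%), and the smallest adjusted p among the Klra probe sets was 0.269. At an unadjusted p under 0.05 in that limma fit, 9 of 9 Klra probe sets were called, against 2.25% of all. With the block 7 of 9 were called, all of them higher and all but 93894_f_at and 100326_f_at, against 0.819% of all probe sets in either direction and 0.518% higher. At an unadjusted p with the block the background was 10.1%. Both TCRab CD8aa arrays lay above both TCRab CD8ab arrays in 9 of 9, against 10.1% of all, and all 9 were higher by a log2 of 1 or more in both experiments, against 1.98%. The median difference was 3.61 over the tested Klra probe sets and -0.08 over all tested probe sets. Probe sets bright in only the CD8aa subsets entered these counts through that brightness, and probe sets with shared probes are not independent.

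The blocked calls rested on the settings. With no filter on dim probe sets none of the array was called and the smallest adjusted p of a Klra probe set was 0.522, and with no intensity trend in limma's variance estimate 95908_at alone was called. Without the first TCRab CD8aa array only Klra5 and 95908_at passed, and without the second the calls of 93893_f_at and 94779_f_at were lost (adjusted p = 0.147 and 0.086). The 9 differences were above 0 under each alternative that was run, though several alternatives, such as no filter or no trend, cannot change a difference.

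For TCRgd CD8aa over TCRab CD8ab cells, fewer Klra probe sets passed, although both TCRgd CD8aa arrays lay above both TCRab CD8ab arrays in 9 of 9, against 9.4% of all. Those called with the block were Klra5, Klra3 and 94779_f_at, 3 of 9, against 0.554% of all probe sets in either direction and 0.337% higher. Without the block 0 were called (0% of all), the smallest adjusted p was 0.533, and 4 of 9 had an unadjusted p under 0.05, against 2.02% of all. The background at an unadjusted p with the block was 8.21%. A difference of at least 1 in log2 in both experiments was seen in 7 of 9, against 1.88%, the exceptions being both Klra7 probe sets. The median difference was 1.74 over the tested Klra probe sets and -0.06 over all. None of the 3 passed with no filter (smallest adjusted p = 0.454) or with no intensity trend (0.0902), and without the second TCRab CD8ab array only Klra5 did. Leaving out the first TCRgd CD8aa array ended the call of 93893_f_at (adjusted p = 0.0745), and leaving out the second, on which markers of other cells were raised, that of 94779_f_at (adjusted p = 0.109). The part of those cells in the Klra signals was not tested.

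**Figure D2:**
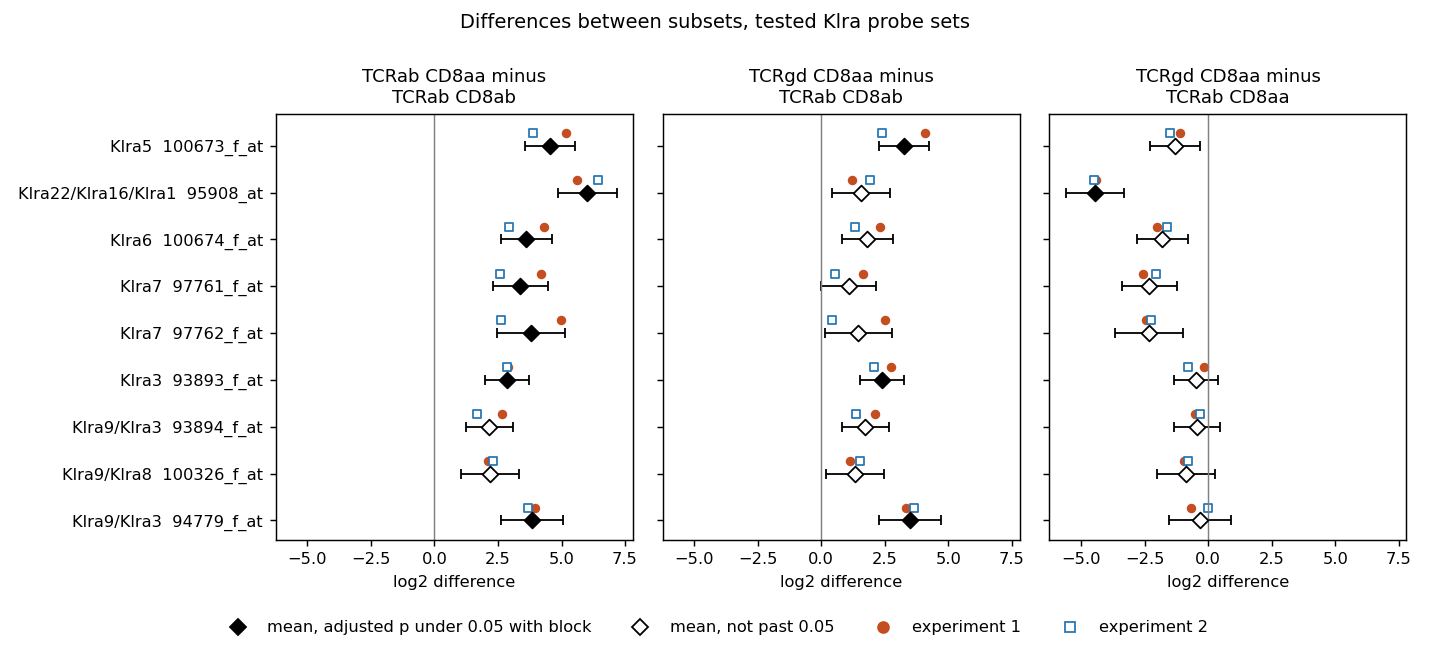
Log2 difference of each tested Klra probe set in the 3 comparisons, with the 95% interval of limma's fit with the experiment as a block and a point for each experiment (filled diamonds: adjusted p under 0.05). Differences from TCRab CD8ab cells are above 0 in both CD8aa subsets, and TCRgd CD8aa minus TCRab CD8aa runs from -4.46 for 95908_at to -0.34 for 94779_f_at.

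The direct comparison of both CD8aa subsets separated the probe sets by size of difference. On 95908_at TCRgd CD8aa cells were lower than TCRab CD8aa cells, with a log2 difference of -4.46 ± 0.51, which was -4.42 in experiment 1 and -4.50 in experiment 2 (adjusted p = 0.0383, limma with the block). It was the only one of 9 called, and the only tested probe set of the array called lower (0.012% of all, and 0.0241% in either direction). For the Klra7 probe sets the differences were -2.31 (95% interval -3.38 to -1.24, adjusted p = 0.82) and -2.34 (-3.67 to -1.003, adjusted p = 1). Klra6 had -1.81 (-2.81 to -0.81) and Klra5 -1.30 (-2.29 to -0.30), both with an adjusted p of 1. The intervals are for 1 probe set at a time and exclude 0 here, while the adjusted p takes all 8299 tests into account.

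The Klra3 and Klra9 probe sets were nearest to equal. The difference of TCRgd CD8aa from TCRab CD8aa cells was -0.47 (-1.33 to 0.40) for 93893_f_at, -0.43 (-1.34 to 0.49) for 93894_f_at and -0.34 (-1.56 to 0.88) for 94779_f_at. That of 100326_f_at was -0.87 (-2.00 to 0.27). These intervals hold 0, and also more than a 2-fold lower signal, so equal levels are not shown. Whether the difference of 95908_at exceeds that of the Klra3 probe sets was not tested, since hybridisation differs between probe sets.

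All 9 tested Klra probe sets were lower in TCRgd CD8aa than in TCRab CD8aa cells in both experiments, against 24.8% of all. The arrays did not overlap in 6 of 9, against 6.64%, and 5 of 9 were lower by at least 1 in both experiments, against 0.482%. Without the block 0 were called (0% of all), the smallest adjusted p was 1, and 4 of 9 had an unadjusted p under 0.05, against 0.41% of all. The background at an unadjusted p with the block was 2.07%. The median was -1.30 over the Klra probe sets and 0.00 over all. The call of 95908_at was lost without either TCRab CD8aa array (adjusted p = 0.123 without the first and 1 without the second), with quantile normalization (adjusted p = 0.07), with no filter (0.955) and with no intensity trend (0.153). Without the first TCRgd CD8aa array the differences of the Klra7 probe sets with the block were -2.45 and -2.81. The comparisons share arrays: TCRab CD8ab arrays enter both differences from that subset, and each CD8aa array enters the direct comparison too.

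**Figure D3:**
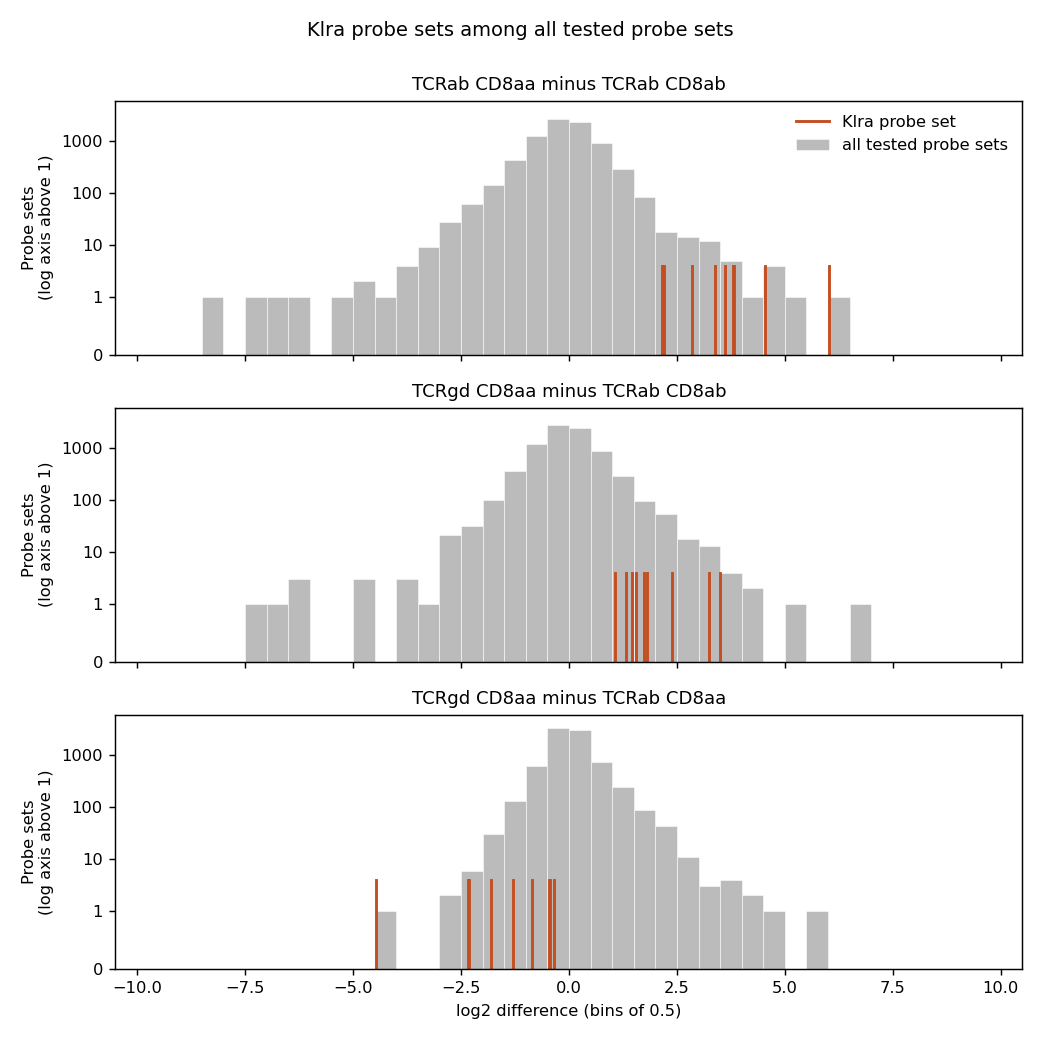
Histogram of the log2 differences of all 8299 tested probe sets in the 3 comparisons (number of probe sets on a log axis), with a line for each of the 9 tested Klra probe sets. The Klra lines lie above 0 in both comparisons with TCRab CD8ab cells and below 0 for TCRgd CD8aa minus TCRab CD8aa cells.

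The experiments moved the Klra probe sets in different directions. Klra5 was lower in experiment 2 than in experiment 1, with a log2 difference of -1.41 ± 0.36 (adjusted p = 0.0152, limma). It was -1.71 in TCRab CD8aa, -2.11 in TCRgd CD8aa and -0.41 in TCRab CD8ab cells. The probe set 95908_at had a value of 1.09 for experiment 2 over experiment 1 (adjusted p = 0.0702) and 100326_f_at 1.07 (adjusted p = 0.0733). With 93894_f_at, 2 of 9 Klra probe sets were called between experiments, against 34.1% of all. Whether a subset difference itself changed between experiments could not be tested, since 1 array per subset and experiment leaves no replicate.

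After each experiment's mean was taken out, the 9 profiles were alike across the 6 arrays. Pearson's r of a probe set with the mean of the other 8 lay between 0.890 (95908_at) and 0.993 (Klra6). The Klra7 probe sets correlated at 0.991 with each other, and the lowest pair was 94779_f_at and 95908_at at 0.751. Among 1118 other probe sets with 1 symbol and a range of at least 2 in log2, 30 had a correlation over 0.9 with the mean Klra profile. The 6 highest were Cnih2 (0.989), Myo1e (0.986), Zbtb16 (0.985), Frmd5 (0.982), Tgfb3 (0.965) and Gkap1 (0.963). These are descriptions over 6 arrays that share experiments. All of the 9 but 95908_at carry the suffix of shared probes, so likeness among them may be partly built in. Zbtb16, which encodes the transcription factor PLZF, had signals of 371.3 and 489.3 in TCRab CD8aa cells and 134.0 and 122.8 in TCRgd CD8aa cells. Its signals in TCRab CD8ab cells, 3.0 and 4.0, were under the floor, so its correlation rests in part on the floor.

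Of 4 listed genes for adaptors of activating receptors 3 were tested, and without the block 0 were called in any comparison. With the block 2 of them rose in each CD8aa subset over TCRab CD8ab cells. The share of all tested probe sets called higher there was 0.518% for TCRab CD8aa and 0.337% for TCRgd CD8aa cells. Tyrobp (DAP12) had signals of 12063.2 and 7524.2 in TCRab CD8aa cells, 10955.2 and 3640.0 in TCRgd CD8aa cells, and 215.5 and 459.2 in TCRab CD8ab cells. It was higher by 4.92 ± 0.53 in TCRab CD8aa (adjusted p = 0.00345, limma) and by 4.33 ± 0.53 in TCRgd CD8aa cells (adjusted p = 0.00856). Fcer1g, the Fc receptor gamma chain, had signals of 1029.9 and 594.2 in TCRab CD8aa cells, 1364.8 and 520.0 in TCRgd CD8aa cells, and 12.8 and 37.6 in TCRab CD8ab cells. It was higher by 5.03 ± 0.60 (adjusted p = 0.00609) and 5.13 ± 0.60 (adjusted p = 0.00719). The third, Cd247 (the CD3 zeta chain), had values of the opposite sign, -1.96 ± 0.39 in TCRab CD8aa (adjusted p = 0.0675) and -0.82 ± 0.39 in TCRgd CD8aa cells (adjusted p = 0.648), and passed in neither. None of the 3 was called between TCRgd CD8aa and TCRab CD8aa cells, where their median was 0.11.

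**Figure D4:**
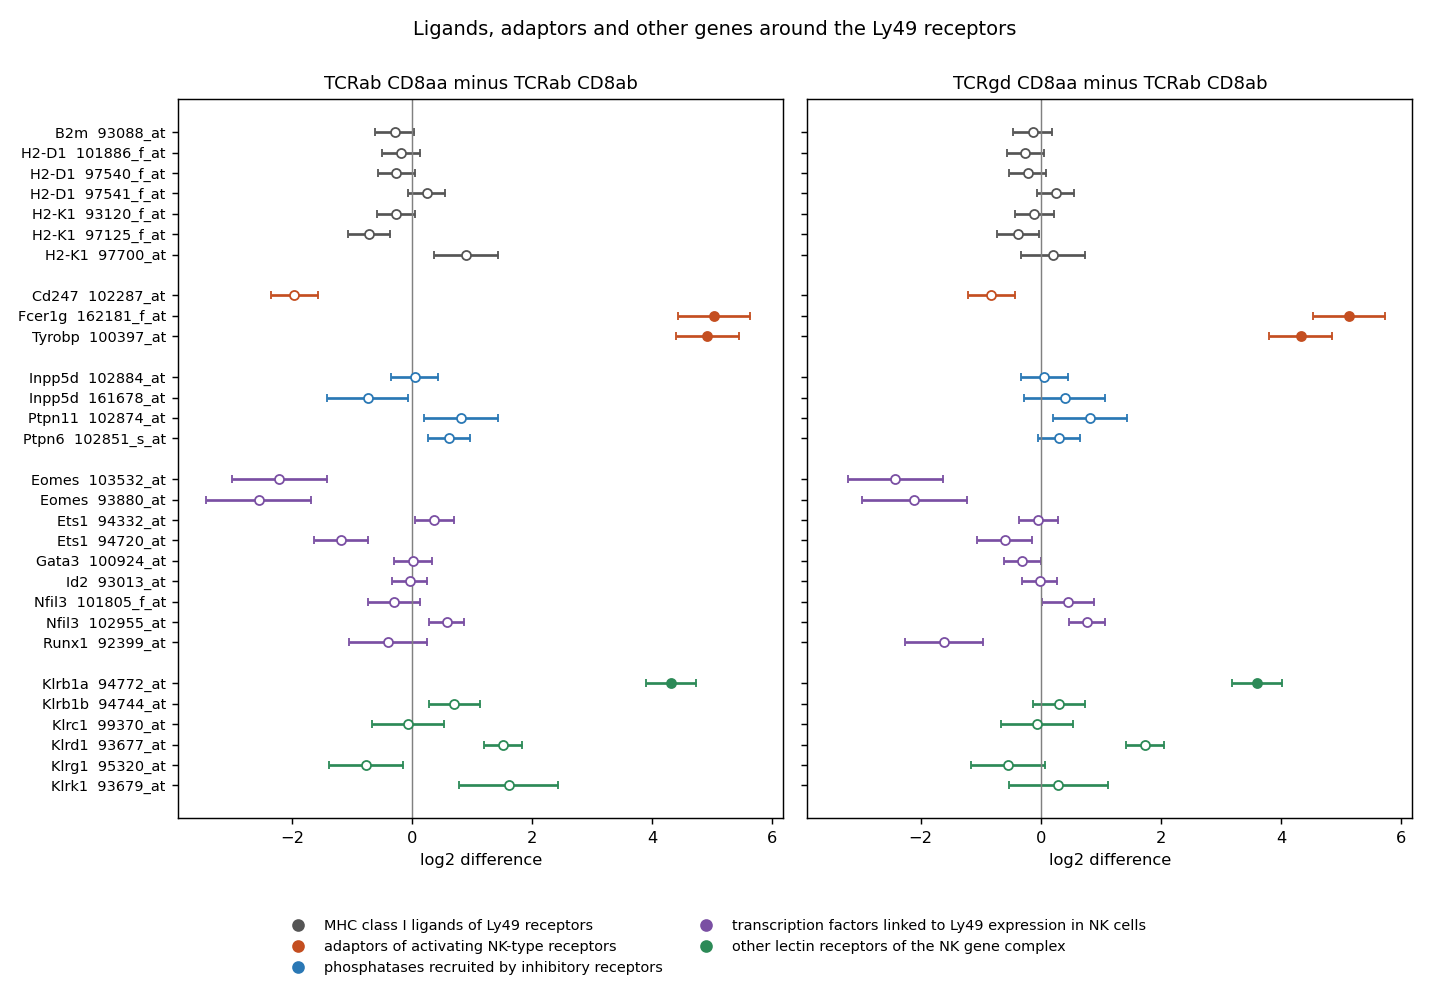
Log2 difference of the listed genes tied to Ly49 receptors (ligands, adaptors, phosphatases, transcription factors and other lectin receptors) in TCRab CD8aa and TCRgd CD8aa over TCRab CD8ab cells, with bars for the standard error of limma's fit with the block and filled points where the adjusted p was under 0.05. Tyrobp, Fcer1g and Klrb1a lie between 3.61 and 5.13 in both panels, and no MHC class I or phosphatase probe set was called.

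With 0.819%, 0.554% and 0.0241% of all probe sets called with the block in the 3 comparisons, a short list with no call is near the background. Of the phosphatases that inhibitory Ly49 receptors recruit, Ptpn6, Ptpn11 and Inpp5d, 0 of 4 probe sets were called in any comparison with the block, with medians of 0.33, 0.35 and 0.01 for TCRab CD8aa over TCRab CD8ab, TCRgd CD8aa over TCRab CD8ab, and TCRgd CD8aa over TCRab CD8aa cells. Of 7 probe sets for the MHC class I genes H2-K1, H2-D1 and B2m, 0 were called, with medians of -0.26, -0.14 and 0.05. The 2 H2-K1 probe sets with the smallest p disagreed in sign for TCRab CD8aa over TCRab CD8ab, -0.71 and 0.90 (adjusted p = 0.549 and 0.616). Of 9 probe sets for 6 transcription factors linked to Ly49 expression in NK cells, 0 were called, with medians of -0.30, -0.31 and 0.02. Of these, Eomes had -2.55 and -2.21 in TCRab CD8aa over TCRab CD8ab cells on its 2 probe sets (adjusted p = 0.384 and 0.409). Among the other lectin receptors of the same gene complex, 6 of 16 genes were tested and 1 rose, Klrb1a (NKR-P1A), by 4.32 in TCRab CD8aa (adjusted p = 0.00198) and 3.61 in TCRgd CD8aa cells (adjusted p = 0.00694). Klrd1 (CD94) had 1.52 ± 0.31 in TCRab CD8aa cells (adjusted p = 0.0765) and 1.74 in TCRgd CD8aa cells (adjusted p = 0.0574).

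Markers of NK cells apart from Cd7, which T cells also express, did not run in 1 direction. Their summed signals were lower in the CD8aa subsets than in TCRab CD8ab cells through Eomes. The 5 listed genes on the array summed to 24463 and 3990.4 in TCRab CD8aa cells, 24493 and 3947.2 in TCRgd CD8aa cells, and 13869 and 4482.2 in TCRab CD8ab cells, nearly all of it from Cd7. Without Cd7 they summed to 140.2 and 124.1 in TCRab CD8aa cells, 106.4 and 224.7 in TCRgd CD8aa cells, and 259.1 and 346.3 in TCRab CD8ab cells. Ncr1 was at or near the floor on all 6 arrays. Mast cell markers, mostly Kit, summed to 2784.6 and 1480.9 in TCRab CD8aa cells, 2913.1 and 1726 in TCRgd CD8aa cells, and 1438.8 and 539.9 in TCRab CD8ab cells. Without Kit, the sums for Mcpt1, Mcpt2 and Cpa3 were 154.5 and 47.1 in TCRab CD8aa cells, 105 and 700.2 in TCRgd CD8aa cells, and 112.6 and 144.9 in TCRab CD8ab cells, with no common order of the subsets. Macrophage and dendritic cell markers summed to 2294.3 and 915.9 in TCRab CD8aa cells, 2917.6 and 2286.5 in TCRgd CD8aa cells, and 1659.6 and 1430 in TCRab CD8ab cells. Without Itgax, which some T cells also express, they summed to 601.7 and 291 in TCRab CD8aa cells, 684.5 and 1371.9 in TCRgd CD8aa cells, and 977.5 and 699.3 in TCRab CD8ab cells. The part of such cells in the Klra differences was not tested.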

How the data were processed

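RNA of 3 sorted subsets was hybridised to 6 Affymetrix arrays. Each deposited value is a linear signal intensity per probe set, made by the authors with MAS5 per the submitters' processing notes (no version given); the trimmed mean was 500.4 on every array, so a change in total RNA cannot be seen. Detection calls and probe positions were not used here. Values under the 20th percentile (15.3) were set to it before log2, and probe sets with at least 2 arrays above the 40th percentile (56.4) were tested: 8299 of 12488, 66 controls left out. Symbols came from the platform annotation, updated through RefSeq (GRCm38.p6); 10833 probe sets had 1 symbol, 396 several and 1193 none.

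All 6 arrays were fitted with limma 3.58.1 in R 4.3.3 (eBayes with an intensity trend, Benjamini-Hochberg adjustment over all tested probe sets, threshold 0.05), without a block as the main design and with the experiment as a block beside it. The script was tested on simulated data. Replicate numbers pair the arrays because each experiment sorted all subsets from 1 pool; deviations from subset means correlated at 0.618, 0.713 and 0.603. Standard errors and intervals are those with the block, pooled over subsets. Every Klra probe set is named; of each pathway list up to 4 genes with the smallest p are eligible to be named, and of likeness the 6 highest. The members and lists were chosen with earlier results of these data known. The number of arrays limits the precision. Alternatives were other floors, filters, scaling, a constant, no trend, 4 arrays only, and each array left out.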

Additional observations from a re-analysis of the deposited data

How the results depend on the processing

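Without the block, no Klra probe set passed in any comparison under any alternative. With the replicate block, the number of Klra probe sets called for TCRab CD8aa minus TCRab CD8ab was 7, for TCRgd CD8aa minus TCRab CD8ab 3 and for TCRgd CD8aa minus TCRab CD8aa 1. Together with the block, quantile normalization gave 8, 3 and 0, and a floor at the 10th percentile 7, 3 and 1. A floor at the 30th percentile gave 7, 2 and 1, and a constant of 16 in place of the floor 8, 3 and 1. No filter gave 0, 0 and 0, no intensity trend 1, 0 and 0, and only the 4 arrays compared 8, 1 and 1. Over all probe sets, no filter called 0, 0 and 0, and no trend 6, 3 and 1. The 4 arrays alone called 169, 50 and 2 of all, against 68, 46 and 2 with the block on all 6 arrays. Leaving out 1 array with the block gave 2 to 9 (2 and 5 without the first and the second TCRab CD8aa array), 1 to 3 and 0 to 3, and without the block 0 in each. With the block, the number of all probe sets called also changed with the array left out. These ranges alone therefore show no change particular to the Klra probe sets. Of 429 recomputed log2 differences of single probe sets, 417 kept their direction and side of the threshold. Of the rest, 11 passed only with the block and 1 turned its sign. That was 93894_f_at in TCRgd CD8aa minus TCRab CD8aa, 0.080 without the first TCRgd CD8aa array, in a range of -0.94 to 0.080 over the arrays left out. Many of the 417 were fixed in advance. Other filters, no trend, the block, only the 4 arrays compared, and leaving out an array of the third subset cannot change a difference. The side of the threshold says little either, since no probe set passed without the block. The 3 dim Klra probe sets have only a bound, and with 2 arrays per subset small differences are not detectable.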
